A study of Mus musculus with 16 samples.

Results

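CXC and CX3C chemokine ligands are small secreted or membrane-anchored proteins that guide leukocytes to a tissue. The 10 genes described here were chosen by symbol from the 49568 genes of the count table, and they are *Cxcl1*, *Cxcl2*, *Cxcl5*, *Cxcl9*, *Cxcl10*, *Cxcl12*, *Cxcl13*, *Cxcl14*, *Cxcl16* and *Cx3cl1*. They were measured by bulk RNA-seq in 16 libraries of mouse flexor tendon, with 4 libraries in each of 4 groups. The groups were uninjured C57BL/6J (C57) tendon, uninjured MRL/MpJ (MRL) tendon, and tendon of each strain taken 7 days after a partial laceration through 50% of the deep digital flexor tendon of a hind paw digit. The animals were male and 9 to 11 weeks old, neither strain carried a transgene, and MRL is an inbred strain known for its unusual wound repair. The sheath and peritendinous tissue were not dissected away, so each library held cells beyond those of the tendon proper.

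As background, ligands of this family act through G protein-coupled receptors, and they fall into groups by receptor. *Cxcl1*, *Cxcl2* and *Cxcl5* encode neutrophil attractants that share the receptor Cxcr2, and *Cxcl9* and *Cxcl10* encode interferon-inducible ligands of Cxcr3 on T cells. *Cxcl12* encodes the stromal ligand of Cxcr4 and of the scavenging receptor Ackr3, *Cxcl13* the B cell attractant that binds Cxcr5, and *Cxcl14* a ligand made constitutively by many epithelia and fibroblasts. *Cxcl16* and *Cx3cl1* are the transmembrane members, which can tether cells or be released by ADAM proteases, and their receptors are Cxcr6 and Cx3cr1.

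The libraries held 12552424 to 23741648 counted reads, and the injured MRL libraries were the deepest, with 18524170 to 23741648. Levels are given as CPM, counts scaled to a library of 1000000 reads with TMM factors, and 3 reads, taken as the lower limit of detection, were worth 0.126 to 0.241 CPM depending on the library. Replicates are separate animals by the study's methods, and the replicate numbers of the injured libraries only name them in the order listed. The 6 tenocyte markers summed to between 7747 and 36762 CPM in each group's lowest and highest libraries, and none was at 0 in any library. Uninjured C57 replicate 4 stood apart, with 10 epidermal keratinocyte markers at 79577 CPM against 17.2 to 748 CPM in the other 15 libraries. Injured C57 replicate 1 held 6 skeletal muscle markers at 40312 CPM and injured C57 replicate 2 held them at 1242 CPM, against 1.95 to 13.02 CPM elsewhere. In bulk tissue, fewer cells of a type and less RNA per cell cannot be told apart.

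The 2 transmembrane ligands were the members called by edgeR after injury in MRL tendon. *Cxcl16* rose 3.77-fold and *Cx3cl1* rose 2.69-fold, so 2 of the 6 members tested in MRL tendon were called. The groups overlapped for *Cx3cl1*, which 5 of the 8 fits with a library left out no longer called, and DESeq2 called *Cxcl10* as well. In C57 tendon 0 of 7 members tested were called, although *Cxcl16* was also higher there in each injured library than in any uninjured library. *Cxcl1*, *Cxcl5* and *Cxcl10* were highest in injured MRL replicate 4 and varied widely within that group, and *Cxcl2* was highest in an uninjured C57 library. *Cxcl12* and *Cxcl14* were the abundant members in each group and did not pass the test in any comparison.

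**Figure D1:**
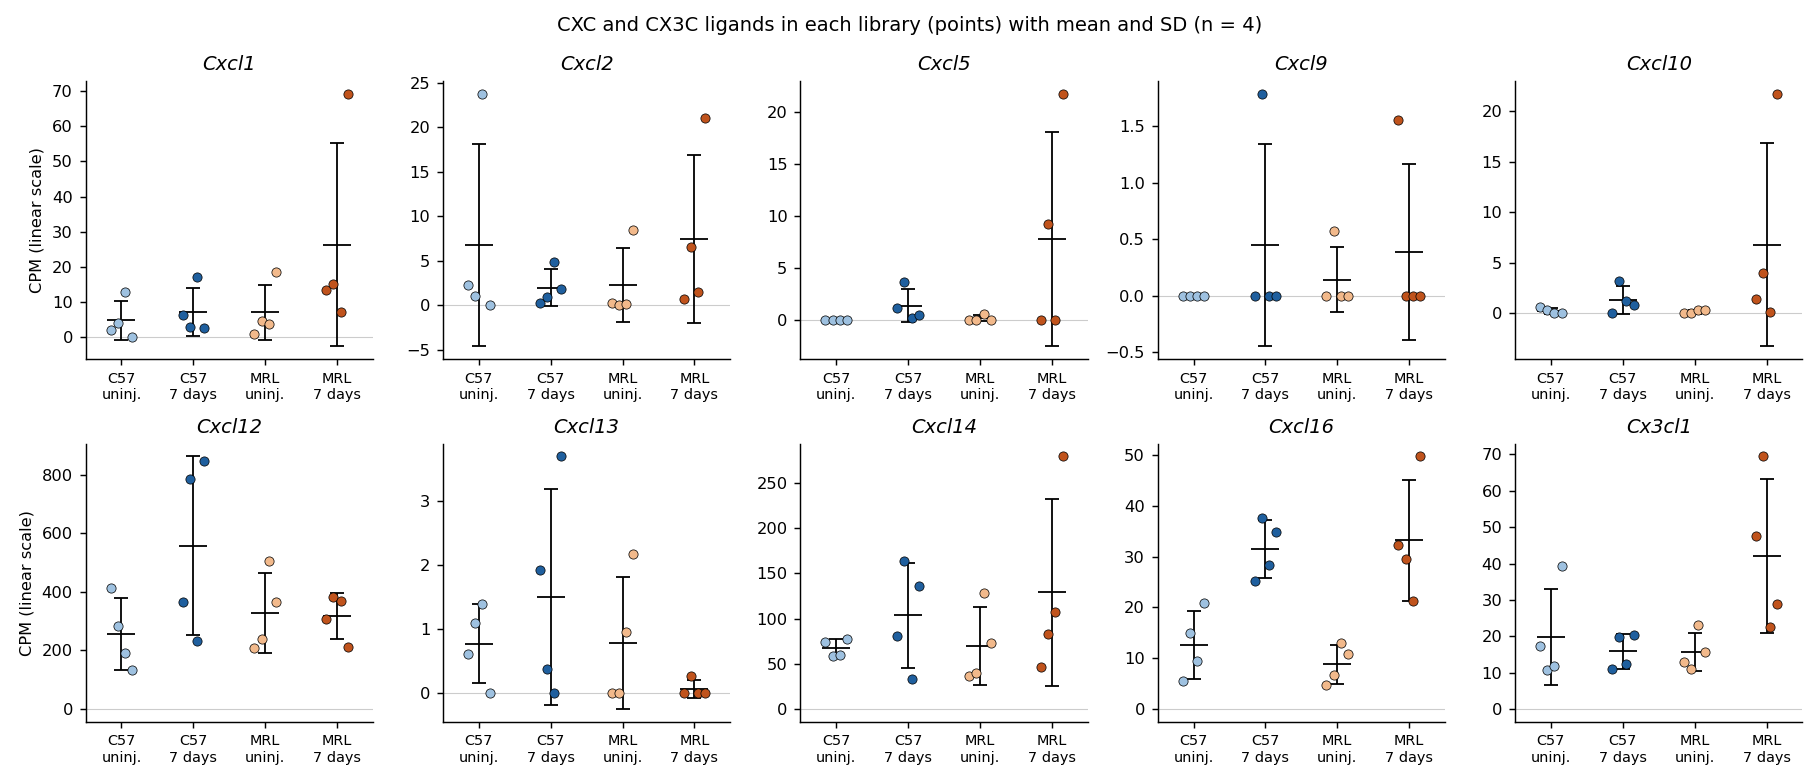
Level of each ligand in CPM on a linear axis in the 16 libraries (points) of the 4 groups, with the group mean and SD (bars, n = 4); SD bars can reach below 0 where 1 library carries the mean. *Cxcl16* lies at 21.2 to 49.7 CPM in all 8 injured libraries and at 4.71 to 20.8 CPM in the 8 uninjured ones. In injured MRL tendon *Cxcl1*, *Cxcl5* and *Cxcl10* are highest in replicate 4, and *Cxcl5* is also held by replicate 2, at 9.25 CPM.

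Genes were called at an adjusted p below 0.05 and an absolute log2 fold change over 1, using edgeR's quasi-likelihood test with Benjamini-Hochberg adjustment over all genes tested. In MRL tendon 7.41% of the 14274 genes tested were called, 5.25% as higher after injury, and in C57 tendon 1.07% of 14424 were called, 0.908% as higher. The 2 of 6 members called in MRL tendon stand beside the 5.25%, and the 0 of 7 in C57 tendon beside the 1.07%. At an unadjusted p below 0.05 the same 2 of 6 members passed in MRL tendon, where 28.3% of all genes did. At an unadjusted p below 0.05, 2 of the 7 members passed in C57 tendon, *Cxcl12* and *Cxcl16*, where 15.3% of all genes did. DESeq2 called more genes than edgeR, 905 in C57 tendon with 2 members, *Cxcl5* and *Cxcl16*, and 1818 in MRL tendon with 3 members.

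*Cxcl16*, which lies at chr11:70453983-70459984 on the minus strand of GRCm38, encodes a transmembrane chemokine that also acts as a scavenger receptor for oxidised lipoprotein. In uninjured MRL tendon its level was 4.71, 6.71, 13.1 and 10.9 CPM in replicates 1 to 4, and in injured MRL tendon it was 32.3, 29.5, 21.2 and 49.7 CPM. The lowest injured library was above the highest uninjured library, so the groups did not overlap. The fitted log2 fold change was 1.91 (SE 0.37, edgeR adjusted p = 0.0110). In uninjured C57 tendon the level was 5.44, 15.03, 9.41 and 20.8 CPM, and in injured C57 tendon it was 25.3, 37.7, 28.3 and 34.8 CPM. These groups did not overlap either, and the highest uninjured value belonged to replicate 4, the library rich in keratinocyte markers. The log2 fold change in C57 tendon was 1.26 (SE 0.40, edgeR adjusted p = 0.191). Without uninjured C57 replicate 4 it was 1.62 with an edgeR adjusted p of 0.0265, which is a call.

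The difference between the injured strains in *Cxcl16* was smaller than its error. Injured MRL tendon had 33.2 ± 12.0 CPM (SD, n = 4) and injured C57 tendon 31.5 ± 5.71 CPM, a log2 difference of 0.04 (SE 0.26, edgeR adjusted p = 0.950). The difference of the injury responses, MRL minus C57, was 0.60 on the log2 scale with an SE of 0.56 (edgeR adjusted p = 0.721). It was 0.24 without uninjured C57 replicate 4 and 0.87 without uninjured C57 replicate 1. The 6 macrophage markers also summed higher after injury within each strain. The sum was 1138 to 1987 CPM in injured C57 tendon, 502 to 1075 CPM in injured MRL tendon and 230 to 585 CPM in the uninjured groups. Between the injured strains the markers differed where *Cxcl16* did not, with a median sum of 1913 CPM in C57 and 620.2 CPM in MRL. The part of macrophages in the *Cxcl16* result was not tested. *Zmynd15* overlaps *Cxcl16* on the opposite strand, and whether the counting used strand is not given in the sources used here. *Zmynd15* itself averaged between 0.0901 and 3.09 CPM in the groups.

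*Cx3cl1*, at chr8:94772009-94782427, encodes fractalkine, the only CX3C ligand, which is made by endothelium, epithelium and neurons and holds or attracts monocytes. Uninjured MRL tendon had 13.1, 11.03, 23.0 and 15.7 CPM, and injured MRL tendon had 47.5, 69.5, 22.7 and 28.8 CPM. Injured replicates 1 and 2 were far above the uninjured range, while injured replicate 3 lay just below uninjured replicate 3, so the groups overlapped. The log2 fold change was 1.43 (SE 0.37, edgeR adjusted p = 0.0330). Of the 8 fits with a library left out, 5 no longer called it, namely those without injured replicate 1 or 2 or uninjured replicate 1, 2 or 4, with log2 fold changes of 1.08 to 1.44 and edgeR adjusted p of 0.0718 to 0.0942.

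*Cx3cl1* was not called in C57 tendon. Uninjured C57 tendon had 17.3, 10.8, 11.9 and 39.3 CPM, and injured C57 tendon had 11.1, 19.8, 12.4 and 20.3 CPM. The highest uninjured value was again that of replicate 4, and without it the log2 fold change went from -0.38 (SE 0.46, edgeR adjusted p = 0.750) to 0.22. All 4 injured MRL libraries were above all 4 injured C57 libraries, with a log2 difference of 1.37 (SE 0.37, edgeR adjusted p = 0.0704). That missed the threshold, and it passed without injured MRL replicate 3 at a log2 difference of 1.63 (edgeR adjusted p = 0.0414). The test of whether the injury responses differed gave a log2 value of 1.75 (SE 0.61), an unadjusted edgeR p of 0.0117 and an adjusted p of 0.344. Without uninjured C57 replicate 4 this value was 1.16.

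Endothelial cells are a known source of *Cx3cl1*. Their 5 marker genes summed to 0.0840 to 18.2 CPM in injured and 0 to 50.4 CPM in uninjured MRL tendon, against 83.8 to 124.6 CPM in injured C57 tendon. In injured MRL replicate 1, which had 47.5 CPM of *Cx3cl1*, 4 of the 5 endothelial markers were at 0. In uninjured MRL tendon the library highest in *Cx3cl1*, replicate 3 with 23.0 CPM, was also the highest in these markers, with 50.4 CPM against 0 to 7.55 CPM in the other 3. In uninjured C57 tendon the library highest in *Cx3cl1*, replicate 4 with 39.3 CPM, was the lowest in them, with 16.1 CPM in a range up to 70.6 CPM. The part of endothelial cells in the *Cx3cl1* levels was not tested. The reads of both strains were aligned to GRCm38, a genome of C57BL/6J, and its part in the differences between strains was not tested.

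**Figure D2:**
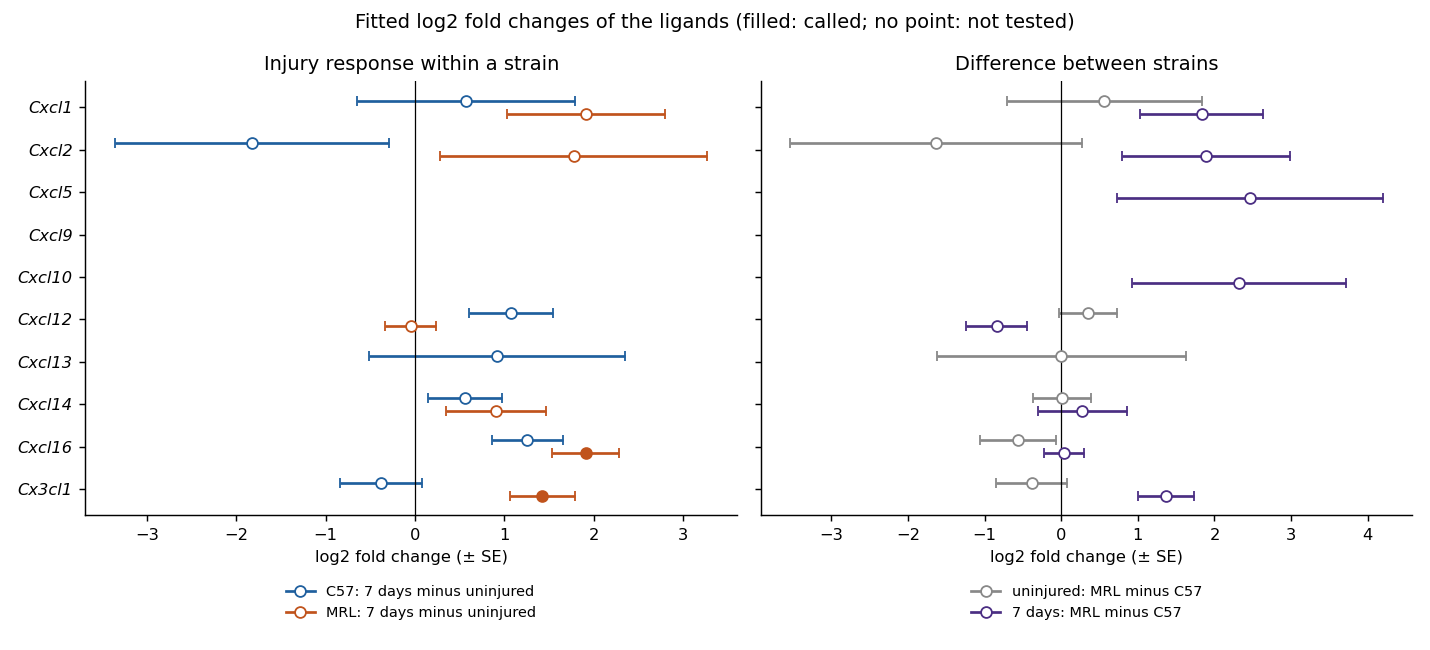
Fitted log2 fold change (point) and its SE (bar) for each tested member, with the injury response of each strain on the left and MRL minus C57 on the right. Filled points passed the call rule, which are *Cxcl16* (1.91) and *Cx3cl1* (1.43) in MRL tendon, and members too low to be tested have no point.

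*Cxcl1* and *Cxcl2* are neighbouring genes on chromosome 5, at chr5:90891241-90893115 and chr5:90903871-90905938 on the plus strand, with 10755 bases between them. Their levels varied together over the 16 libraries, with a Pearson r of 0.72 and a Spearman rho of 0.62 on log2 CPM, and with r = 0.78 after group means were removed. The points share libraries and depth, and related copies could share reads, so these values are descriptive. The 250 bases before their RefSeq start sites are shown because both hold NF-kB-like letters, GGG, any 3 bases and TTCC, and that of *Cxcl10* is shown because it holds those letters and the interferon element core, TTTC, any 2 bases and TTTC. Capitals mark a match on either strand, and overlapping matches run together.

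Cxcl1 (GRCm38.p6, chr5:90890995-90891244, plus strand): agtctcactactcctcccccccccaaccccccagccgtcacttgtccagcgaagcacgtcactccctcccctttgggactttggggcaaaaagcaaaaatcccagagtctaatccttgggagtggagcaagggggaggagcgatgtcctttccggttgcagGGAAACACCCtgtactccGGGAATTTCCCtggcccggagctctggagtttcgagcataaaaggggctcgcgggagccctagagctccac
Cxcl2 (GRCm38.p6, chr5:90903649-90903898, plus strand): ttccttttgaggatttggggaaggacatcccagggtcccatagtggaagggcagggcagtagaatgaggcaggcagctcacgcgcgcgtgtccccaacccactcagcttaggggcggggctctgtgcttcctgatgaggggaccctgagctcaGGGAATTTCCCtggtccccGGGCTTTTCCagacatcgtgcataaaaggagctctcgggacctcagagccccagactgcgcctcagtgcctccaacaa
Cxcl10 (GRCm38.p6, chr5:92348890-92349139, minus strand): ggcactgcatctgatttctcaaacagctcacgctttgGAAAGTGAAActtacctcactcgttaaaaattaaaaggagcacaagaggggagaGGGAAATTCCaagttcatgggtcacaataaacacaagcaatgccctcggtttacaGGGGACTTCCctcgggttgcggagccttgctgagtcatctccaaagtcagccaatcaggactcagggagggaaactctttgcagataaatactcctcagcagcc

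The NF-kB-like letters began 89, 71 and 70 bases before the start of *Cxcl1*, the last 2 being overlapping matches on opposite strands. In *Cxcl2* they began 97, 96 and 78 bases before the start, and the first 2 of these overlap in the same way. In *Cxcl10* they began 159 and 104 bases before the start, and the interferon element core began 213 bases before it. Among all 32851 RefSeq promoters of this length, 4.65% held the NF-kB-like letters and 2.98% the interferon element core. Of the 8 members with a promoter entry, the NF-kB-like letters were in *Cxcl1*, *Cxcl2* and *Cxcl10*, and the interferon element core was in *Cxcl10* and *Cxcl14*. A match describes letters and not a bound site.

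The levels of *Cxcl1* were carried by single libraries. In injured MRL tendon *Cxcl1* was at 13.3, 15.1, 7.23 and 69.3 CPM, against 0.994, 4.69, 3.82 and 18.6 CPM in uninjured MRL tendon. Replicate 4 was the highest library of either group, and the groups overlapped. The log2 fold change was 1.92 (SE 0.89, edgeR adjusted p = 0.186). Without injured replicate 4 it was 0.77, and without uninjured replicate 4 it was 3.05. In C57 tendon *Cxcl1* was at 2.01, 4.15, 12.7 and 0 CPM before injury and at 6.18, 2.77, 17.1 and 2.70 CPM after it, a log2 fold change of 0.57 (SE 1.22, edgeR adjusted p = 0.878). That value turned to -0.26 without injured replicate 3 and was 1.77 without uninjured replicate 3.

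*Cxcl2* was high in a different uninjured library of each strain. Uninjured C57 tendon had 2.22, 0.972, 23.8 and 0 CPM and injured C57 tendon had 0.240, 0.924, 4.86 and 1.85 CPM. Uninjured MRL tendon had 0.265, 0, 0.119 and 8.44 CPM and injured MRL tendon had 0.714, 6.57, 1.499 and 21.0 CPM. The log2 fold change was -1.83 (SE 1.53, edgeR adjusted p = 0.613) in C57 tendon and 1.78 (SE 1.498, edgeR adjusted p = 0.477) in MRL tendon. Leaving out uninjured C57 replicate 3 turned the C57 value to 0.83, and leaving out uninjured MRL replicate 4 raised the MRL value to 5.78 with an edgeR adjusted p of 0.0473.

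The library that set the C57 value of *Cxcl2* also stood apart in other genes. In uninjured C57 replicate 3, *Il1b*, the interleukin 1 beta gene that induces these ligands, was at 32.2 CPM against 0 to 0.194 CPM in the other uninjured C57 libraries. The 6 neutrophil markers summed to 139.8 CPM there and to at most 0.873 CPM in the other 3. Most of that sum was *S100a8*, at 83.3 CPM, and *S100a9*, at 50.1 CPM, which keratinocytes can also express. *Csf3r* and *Retnlg* were at 3.16 and 3.24 CPM there, each the highest of its group, and *Ly6g* and *Mpo* were at 0. The keratinocyte markers summed to 719.6 CPM in that library, against 17.3 and 18.7 CPM in replicates 1 and 2. Injured MRL replicate 4 had the highest neutrophil marker sum of its group, 28.2 CPM, and the highest *Il1b*, 16.6 CPM. Most of that sum was again *S100a8*, at 20.8 CPM. The highest *Csf3r* of the group, 9.41 CPM, was in another library. The part of neutrophils or keratinocytes in the *Cxcl1* and *Cxcl2* levels was not tested.

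*Cxcl5*, at chr5:90759360-90761624, was counted almost only after injury. In uninjured C57 tendon it was at 0 in all 4 libraries, and in injured C57 tendon it was at 1.1403, 3.64, 0.194 and 0.426 CPM. The groups did not overlap, and the injured mean of 1.35 CPM was at least 6.59-fold higher than the mean limit of 3 reads per library. Injured replicate 3 held 3 reads, which is that limit, and without replicate 2 the injured mean was 0.587 CPM and the bound 2.87-fold. The injured level was so low that *Cxcl5* did not pass the abundance filter there. Without the filter its unadjusted edgeR p was 0.00374 and its adjusted p 0.196. In MRL tendon it was at 0, 0, 0.597 and 0 CPM before injury and at 0, 9.25, 0 and 21.7 CPM after, so 2 injured libraries held it and 2 did not. Without the filter the MRL comparison gave an edgeR adjusted p of 0.273. Between the injured strains the log2 difference was 2.46 (SE 1.74, edgeR adjusted p = 0.456), and it was 1.215 without injured MRL replicate 4 and 3.62 without injured C57 replicate 2.

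*Cxcl10* and *Cxcl9*, the interferon-inducible pair, were low in most libraries. *Cxcl10*, at chr5:92346638-92348889 on the minus strand, was at 0.604, 0.324, 0 and 0 CPM in uninjured C57 tendon and at 0, 3.20, 1.23 and 0.852 CPM after injury. In MRL tendon it was at 0, 0, 0.358 and 0.321 CPM before injury and at 1.43, 3.94, 0.132 and 21.7 CPM after injury. It did not pass the filter in either strain's injury comparison, and without the filter its edgeR adjusted p was 0.493 in C57 and 0.0823 in MRL tendon. In MRL tendon it was called by DESeq2, and also by edgeR without injured replicate 3. Between the injured strains the log2 difference was 2.32 (SE 1.39, edgeR adjusted p = 0.370), and it was 0.51 without injured MRL replicate 4. *Art3*, which overlaps *Cxcl10* on the other strand, was at 4.41 to 334.5 CPM over the libraries, above *Cxcl10* in each group mean, so reads of *Art3* in the shared stretch could have been assigned or dropped depending on the counting.

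*Cxcl9*, at chr5:92321347-92328079 on the minus strand, was at 0 in 13 of the 16 libraries. The exceptions were injured C57 replicate 2 with 1.79 CPM, injured MRL replicate 1 with 1.55 CPM and uninjured MRL replicate 2 with 0.577 CPM. It passed the filter in no comparison, and no difference was detectable at this depth. *Cxcr3*, the receptor of *Cxcl9* and *Cxcl10*, was at 0 in all uninjured C57 libraries and averaged 1.61 ± 1.09 CPM (SD, n = 4) in injured C57 tendon, at least 7.88-fold higher, with an edgeR adjusted p of 0.0655. Without injured C57 replicate 4 the bound for *Cxcr3* was 5.43-fold. In MRL tendon *Cxcr3* was detected in 1 library before and 1 library after injury. Between the injured strains the groups overlapped, with a log2 difference of -1.92 (SE 1.54, edgeR adjusted p = 0.513). The 6 T cell markers summed to 4.47 to 10.4 CPM in injured C57 tendon and 4.87 to 7.98 CPM in injured MRL tendon, against at most 2.39 CPM in uninjured tendon. Most of the sum was *Cd2*, with a mean of 4.25 CPM in injured C57 and 6.16 CPM in injured MRL tendon. The other 5 averaged at most 1.36 CPM in injured C57 and at most 0.335 CPM in injured MRL tendon. The markers' part in the *Cxcr3* levels was not tested.

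*Cxcl12* and *Cxcl14* held 69.9 to 94.5% of the summed CPM of the 10 members in each library. Scaled to exon length, the mean level over the 16 libraries was 50.6 ± 34.0 CPM per kilobase for *Cxcl14* and 44.6 ± 24.6 for *Cxcl12*, and *Cxcl14* was above *Cxcl12* in only 5 libraries. The order went on with *Cxcl16* at 7.13, *Cxcl1* at 6.02, *Cx3cl1* at 5.95, *Cxcl2* at 2.22, *Cxcl5* at 1.24, *Cxcl10* at 0.947, *Cxcl13* at 0.678 and *Cxcl9* at 0.0812 CPM per kilobase. *Cxcl12* was above *Cxcl16* in all 16 libraries. No other neighbouring pair kept its order in all libraries, *Cxcl16* being above *Cxcl1* in 12 and *Cx3cl1* above *Cxcl2* in 13. The order differed between groups, *Cxcl1* having rank 3 in injured MRL tendon at 14.001 and rank 6 in uninjured C57 tendon at 2.52 CPM per kilobase, and the mean of *Cx3cl1* was above that of *Cxcl1* in each group except injured MRL tendon. The length used is the union of all annotated exons, retained introns included, which understates genes such as *Cxcl1* and *Cxcl2*.

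*Cxcl12*, at chr6:117168535-117181367, encodes the retention signal for Cxcr4-bearing cells and is made by stromal fibroblasts. In C57 tendon it was at 413.2, 284.0, 192.7 and 133.6 CPM before injury and at 364.9, 786.2, 230.7 and 845.7 CPM after injury. Injured replicates 2 and 4 were high and the other 2 lay within the uninjured range. The log2 fold change of 1.08 (SE 0.47) had an edgeR adjusted p of 0.323. In MRL tendon it was at 206.9, 238.0, 505.5 and 366.3 CPM before and at 307.0, 381.3, 368.6 and 213.0 CPM after injury, a log2 fold change of -0.05 (SE 0.29, edgeR adjusted p = 0.933). The test of the difference of these responses gave -1.18 (SE 0.59), with an unadjusted edgeR p of 0.0628 and an adjusted p of 0.439.

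*Cxcl14*, at chr13:56288643-56296551 on the minus strand, was near-constant in uninjured C57 tendon and spread after injury. It was at 74.5, 58.8, 59.9 and 77.2 CPM before and at 80.7, 163.2, 33.5 and 136.0 CPM after injury in C57 tendon, a log2 fold change of 0.56 (SE 0.41, edgeR adjusted p = 0.561). In MRL tendon it was at 36.5, 39.9, 128.5 and 73.2 CPM before and at 46.6, 83.2, 107.2 and 279.0 CPM after injury, a log2 fold change of 0.90 (SE 0.56, edgeR adjusted p = 0.325). Without injured MRL replicate 4 the value fell to 0.19.

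*Cxcl13*, at chr5:95956951-95961068, was low in each group. In C57 tendon it was at 0.604, 1.10, 1.39 and 0 CPM before and at 1.92, 0.370, 0 and 3.69 CPM after injury, a log2 fold change of 0.92 (SE 1.43, edgeR adjusted p = 0.815) that was 0.018 without injured replicate 4. In MRL tendon it was at 0, 0, 0.955 and 2.17 CPM before injury, and after injury it was counted only in replicate 2, at 0.272 CPM. *Cxcl13* did not pass the filter in MRL tendon or between the injured strains. Without the filter the injured strains gave an unadjusted edgeR p of 0.0235 and an adjusted p of 0.238. B cell markers, 4 genes, summed to 0.739 to 2.40 CPM in injured C57 and 0 to 0.453 CPM in injured MRL tendon, their part in the *Cxcl13* levels was not tested, and *Cxcr5* averaged 1.23 to 1.44 CPM in the groups.

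Injured MRL replicate 4 held the highest level of all 16 libraries for 5 of the 10 members, *Cxcl1*, *Cxcl5*, *Cxcl10*, *Cxcl14* and *Cxcl16*. The next was injured C57 replicate 4 with 2. At the other end, uninjured C57 replicate 4 had 6 of the 10 members at 0, the most of any library.

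**Figure D3:**
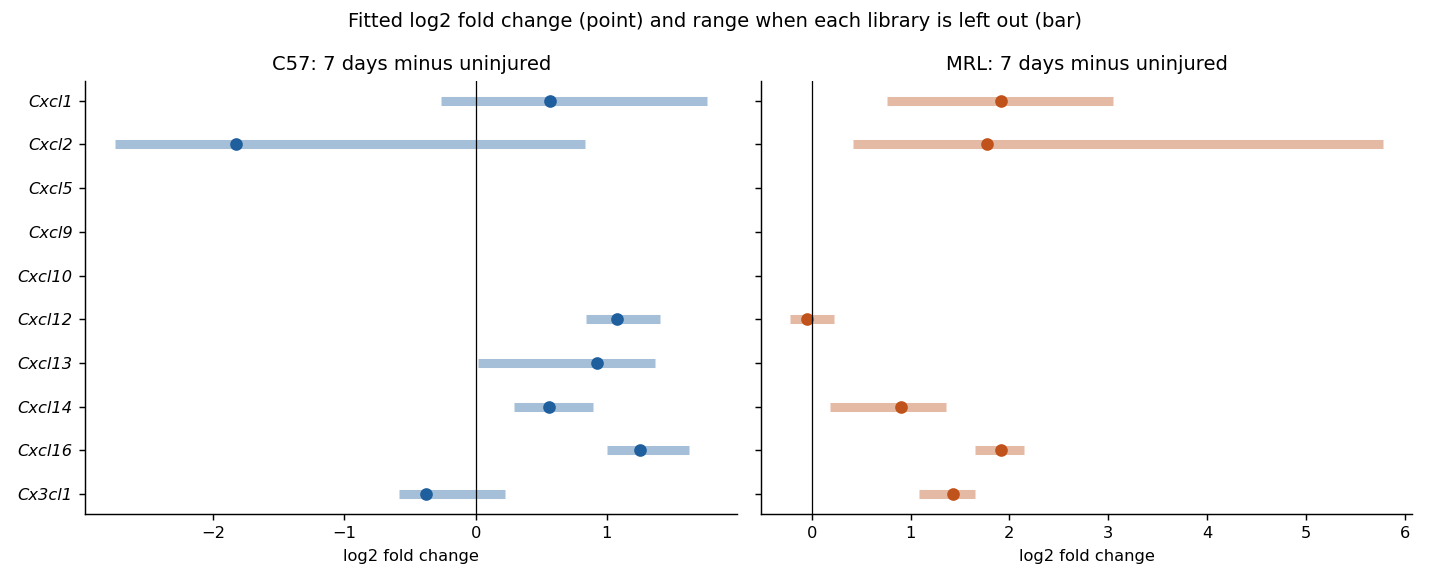
Fitted log2 fold change after injury (point) and the range over the 8 fits that each left out 1 library (bar), for members tested in C57 (left) and MRL (right) tendon. The bar of *Cxcl16* stays right of 0 in both strains, at 1.00 to 1.62 in C57 and 1.65 to 2.14 in MRL, whereas that of *Cxcl2* crosses 0 in C57 and runs from 0.42 to 5.78 in MRL.

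Between strains, 0 of 7 members tested in uninjured tendon and 0 of 8 in injured tendon were called. The background was 0% of 14055 genes in uninjured tendon and 3.43% of 14626 in injured tendon. In uninjured tendon 0 members and 1106 genes had an unadjusted edgeR p below 0.05, and DESeq2 called 0 members and 101 genes. In injured tendon *Cxcl1* and *Cx3cl1* had an unadjusted edgeR p below 0.05, of 0.0444 and 0.00390, as did 3103 genes, 21.2% of those tested. DESeq2 called *Cx3cl1* there among 1488 genes. The *Cxcl1* difference was 1.83 (SE 0.80, edgeR adjusted p = 0.223), and it was 0.75 without injured MRL replicate 4. The largest uninjured difference in size was that of *Cxcl2*, at -1.63 (SE 1.90, edgeR adjusted p = 0.846), MRL minus C57, which was -5.62 without uninjured MRL replicate 4 and turned to 1.04 without uninjured C57 replicate 3. For the difference of the injury responses 0 of 9 members were called against a background of 0% of 15947 genes. There *Cx3cl1* was the 1 member among 1939 genes with an unadjusted edgeR p below 0.05, and DESeq2 called 0 members and 212 genes.

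Groups that did not overlap were counted separately from calls. In C57 tendon the injured and uninjured groups did not overlap for 2 of 10 members, *Cxcl5* and *Cxcl16*, where 11.6% of the genes tested did not overlap. In MRL tendon this held for 1, *Cxcl16*, against 22.9%, between uninjured strains for 0 against 5.04%, and between injured strains for 1, *Cx3cl1*, against 15.8%. The members are counted out of all 10 and the background out of the genes tested.

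Other CXC ligands were also called. In MRL tendon 3 of the 6 other CXC ligands passed the filter and all 3 were called higher, where 5.25% of all genes tested were. *Cxcl3* and *Ppbp* were under 3 reads in each uninjured MRL library and passed the filter only through the injured ones. They could thus hardly be called lower, so this count cannot be weighed against that share. *Cxcl3*, a Cxcr2 ligand, was at 0.133, 0, 0 and 0 CPM before injury and at 1.47, 9.98, 1.28 and 32.2 CPM after it, at least 53.8-fold higher by the limit of 3 reads (edgeR adjusted p = 0.00848). Without injured replicate 4 the injured mean of *Cxcl3* was 4.24 CPM and the bound 20.3-fold. *Ppbp*, another Cxcr2 ligand known from platelets, was at 0 before injury and averaged 3.21 ± 1.98 CPM after it, at least 15.4-fold higher (edgeR adjusted p = 0.00913). Without injured replicate 4 the bound for *Ppbp* was 11.9-fold. *Cxcl3* and *Ppbp* were called in each of the 8 fits with a library left out. *Pf4*, the platelet factor 4 gene that macrophages also express, had a log2 fold change of 1.40 (SE 0.34, edgeR adjusted p = 0.0255) in MRL tendon, and it was no longer called without uninjured replicate 1, 2 or 3. In C57 tendon, where 0.908% of all genes were called higher, it was the 1 called ligand of 2 tested, with a log2 fold change of 1.79 (SE 0.32, edgeR adjusted p = 0.0394), and 7 of the 8 fits with a library left out, and the one with upper-quartile factors, no longer called it.

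*Cxcl3* was also the 1 other CXC ligand called between the injured strains. Injured C57 tendon held 0.3601, 0.739, 0.130 and 0.0710 CPM, all below the lowest injured MRL library. The log2 difference was 5.01 (SE 1.20, edgeR adjusted p = 0.0488), and 6 of the 8 fits with a library left out no longer called it, the lowest value being 3.69. It was also not called with no filter (edgeR adjusted p = 0.0699), without robust estimation (edgeR adjusted p = 0.0508) and in the fit over 16 libraries (edgeR adjusted p = 0.0833). *Pf4* lay the other way, at 355.9 ± 44.1 CPM in injured C57 and 174.3 ± 69.8 CPM in injured MRL tendon (SD, n = 4), and the groups did not overlap. Its log2 difference of -1.06 (SE 0.27, edgeR adjusted p = 0.0597) missed the threshold, and with no filter it passed (edgeR adjusted p = 0.0484). The macrophage markers averaged 1738 CPM in injured C57 and 704.4 CPM in injured MRL tendon, and their part in the *Pf4* difference was not tested. *Cxcl3* lies in the same gene cluster as *Cxcl1* and *Cxcl2*, and reads shared by these related copies could have been split or dropped in counting.

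Of the 9 receptors listed, 2 of 5 tested were called higher after injury in MRL tendon and 0 of 6 in C57 tendon, where 5.25 and 0.908% of all genes were. *Cxcr4*, 1 of the 2, held at most 6 reads in an uninjured MRL library and passed the filter only through the injured ones. It could thus hardly be called lower, so the MRL count cannot be weighed against that share. *Cx3cr1*, the receptor of *Cx3cl1* on monocytes and tissue macrophages, was at 6.10, 4.61, 11.5 and 2.49 CPM in uninjured MRL tendon and at 66.2, 20.8, 17.1 and 42.7 CPM after injury. All 4 injured libraries were above all uninjured ones, and the log2 fold change was 2.58 (SE 0.54, edgeR adjusted p = 0.0150). Only the fit without uninjured MRL replicate 2 no longer called it. In C57 tendon *Cx3cr1* averaged 7.59 ± 6.42 CPM before and 14.3 ± 3.67 CPM after injury, a log2 fold change of 0.84 (SE 0.73, edgeR adjusted p = 0.628). The highest uninjured C57 value, 15.3 CPM, was that of replicate 4, the library rich in keratinocyte markers. The difference of the responses was 1.67 (SE 0.94, edgeR adjusted p = 0.498). The libraries highest in ligand and receptor were not the same: *Cx3cl1* peaked in injured MRL replicate 2 and *Cx3cr1* in replicate 1. The macrophage markers averaged 379.6 CPM before and 704.4 CPM after injury in MRL tendon, and 450.2 and 1738 CPM in C57 tendon. Their part in the *Cx3cr1* levels was not tested.

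*Cxcr4*, the signalling receptor of *Cxcl12*, was near the detection limit before injury in both strains. It averaged 0.191 ± 0.214 CPM in uninjured and 3.29 ± 1.72 CPM in injured MRL tendon, a log2 fold change of 4.11 (SE 1.05, edgeR adjusted p = 0.0324) that was no longer called in 6 of the 8 fits without a library. In C57 tendon it averaged 0.204 ± 0.170 CPM before and 3.52 ± 0.948 CPM after injury, with an edgeR adjusted p of 0.0823. *Ackr3*, which binds *Cxcl12* without G protein signalling, was the abundant receptor at 242.8 to 402.5 CPM in the group means. Its log2 fold change in MRL tendon was -0.72 (SE 0.15, edgeR adjusted p = 0.0163), short of the fold limit.

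The remaining receptors were low or carried by few libraries. *Cxcr2* was at 19.1 CPM in uninjured C57 replicate 4, the keratinocyte-rich library, and at 1.31 CPM in uninjured C57 replicate 3, with at most 0.0600 CPM in any other. *Cxcr6*, the receptor of *Cxcl16*, averaged 0.774 CPM in injured C57 and 0.533 CPM in injured MRL tendon and was at 0 in 2 and 3 of the 4 libraries. *Cxcr1* was counted in 1 injured MRL library only, at 0.0420 CPM. *Ackr1*, a chemokine scavenger of venules and red cells, averaged 14.2 ± 6.32 CPM in injured C57 and 2.09 ± 2.19 CPM in injured MRL tendon, a log2 difference of -2.80 (SE 1.02, edgeR adjusted p = 0.155). The endothelial markers averaged 103.6 CPM in injured C57 and 11.8 CPM in injured MRL tendon, and their part in the *Ackr1* levels was not tested.

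**Figure D4:**
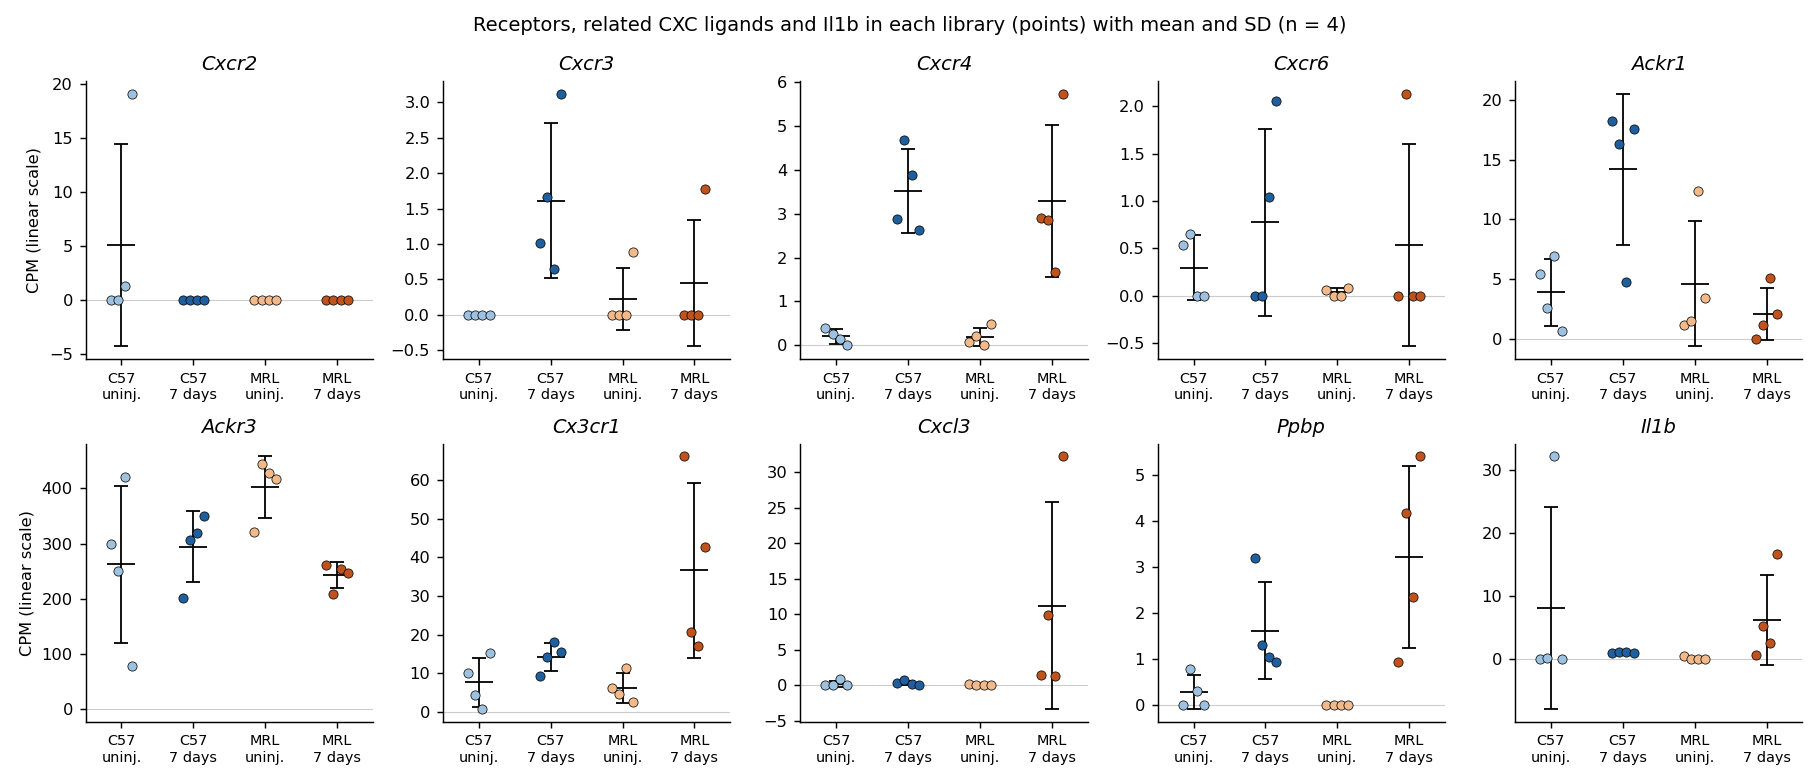
Level in CPM on a linear axis of 7 receptors, 2 related CXC ligands and *Il1b* in the 16 libraries (points), with the group mean and SD (bars, n = 4). *Cx3cr1* is at 17.1 to 66.2 CPM in injured MRL tendon against at most 11.5 CPM in uninjured MRL tendon, *Cxcr2* is high in a single uninjured C57 library, and *Il1b* is highest in uninjured C57 replicate 3.

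Some genes upstream of these ligands were called in MRL tendon. *Ifngr2*, a chain of the interferon gamma receptor, was called higher in MRL tendon, with a log2 fold change of 1.62 (SE 0.20, edgeR adjusted p = 0.00170). In C57 tendon it was at 39.0 ± 7.87 CPM before and 79.5 ± 10.4 CPM after injury (SD, n = 4), with groups that did not overlap and a log2 fold change of 0.99 (SE 0.21, edgeR adjusted p = 0.0628). The difference of the responses was 0.59 (SE 0.28, edgeR adjusted p = 0.422). *Ifng* itself was at 0 in all 16 libraries. Of 14 genes of the NF-kB arm, 12 were tested, with 0 called in C57 and 2 called higher in MRL tendon, beside 1.07% of all genes called in C57 and 5.25% called higher in MRL tendon. *Il1b*, 1 of the 2, passed the filter in MRL tendon only through its injured libraries, so it could hardly be called lower. *Il1b* averaged 0.116 CPM before and 6.27 ± 7.17 CPM after injury in MRL tendon, with a log2 fold change of 5.66 (SE 1.45, edgeR adjusted p = 0.0327), and *Nfkb2*, an NF-kB subunit gene, had one of 1.09 (SE 0.25, edgeR adjusted p = 0.0203). Of the 8 fits with a library left out, 5 no longer called *Il1b*, whose value was 4.499 without injured replicate 4 and 9.87 without uninjured replicate 1, the 1 uninjured library that held its reads, and 4 no longer called *Nfkb2*. *Il1b* was also not called in fits over 16 libraries (edgeR adjusted p = 0.114) and over 14 (edgeR adjusted p = 0.119), nor was *Nfkb2* over 16 (edgeR adjusted p = 0.0903). The median log2 fold change of the tested genes of the NF-kB arm was 0.32 in MRL tendon, beside -0.03 for all genes tested.

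Genes that release or trim these ligands did not pass the test. *Adam10* and *Adam17*, the proteases that shed Cx3cl1 and Cxcl16, *Rhbdf2*, which matures Adam17, and *Dpp4*, which clips Cxcl10 and Cxcl12, were all tested, and 0 of 4 were called in any comparison. Of all genes tested, 1.07% were called in C57 tendon, 7.41% in MRL tendon and 3.43% between injured strains. At such shares 0 of 4 is not a result about these genes. *Rhbdf2* was nearest in MRL tendon, at 5.36 ± 2.26 CPM before and 14.6 ± 4.78 CPM after injury (SD, n = 4), with groups that did not overlap and a log2 fold change of 1.45 (SE 0.43, edgeR adjusted p = 0.0532). *Adam10* averaged 47.2 to 71.1 CPM and *Adam17* 68.5 to 74.2 CPM in the groups. Of 5 lymphoid stroma genes related to *Cxcl13*, 2 were tested in each injury comparison and 0 were called, beside the same shares of all genes.

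For the members with a mean of at least 10 counts, the genes most alike over the 16 libraries were found by Pearson correlation of log2 CPM among 15946 genes. *Cxcl16* was most like *Ccl8* (r = 0.94), *Ccr2* (r = 0.93) and *Ucp2* (r = 0.93). *Cx3cl1* was most like *Rpl7l1* (r = 0.89), *Cxcl1* like *Ptp4a1* (r = 0.95), *Cxcl2* like *Slc38a1* (r = 0.91), *Cxcl5* like *Nos2* (r = 0.85), *Cxcl10* like *Hnrnpk* (r = 0.92) and *Cxcl12* like *Sqrdl* (r = 0.83). *Cxcl14* reached at most 0.79, with *Scn7a*, and *Cxcl13* 0.92, with *Ascl3*. Without uninjured C57 replicate 4 the leading gene changed for *Cxcl5*, *Cxcl12* and *Cxcl16*, the last then being *Fam111a* (r = 0.97). The libraries of a group share their condition, and the highest of so many correlations is large by selection.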

How the data were processed

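The deposited table held raw read counts per gene for 16 libraries, which the authors made with Trimmomatic 0.36, STAR 2.5.2b (alignment to GRCm38.p5) and featureCounts of Subread 1.5.0p3, per the submitters' processing notes. Which annotation was counted, and whether strand was used, is not given in the sources used here. The labels describe TruSeq libraries from 100 ng of RNA, and the study's methods an amplification from 1 ng, which can widen the spread of low counts. Reads were single-end, 100 nt.

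Counts were tested with edgeR 4.0.16 (R 4.3.3) using TMM factors, filterByExpr, a robust quasi-likelihood fit and Benjamini-Hochberg adjustment over all genes tested. Injury within each strain and strain within each condition used the 8 libraries of the comparison, and the difference of the injury responses used all 16, called at an adjusted p below 0.05 with no fold limit. CPM and log2 CPM for correlations (prior count 2) used TMM factors over 16 libraries. Alternatives were DESeq2 1.42.0, other scalings and filters, other sets of libraries, and each library left out. The scripts were tested on simulated data.

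The 10 genes, the related lists and the marker lists were chosen with earlier results of these data known. Each of the 10 genes is given in every library, and from the lists each receptor and each gene called is named, with a few more given as context after their values were seen. A related list and a promoter motif are not reported here. Gene coordinates are GENCODE M21 (GRCm38), and 8 of 10 genes had a RefSeq promoter. Detection limits cover counting error only, whereas SDs and SEs hold the spread between libraries. Same-numbered uninjured libraries of the strains are different animals, and the correlations of their deviations were near 0 or below it, so no pairing was used.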

Additional observations from a re-analysis of the deposited data

Results flagged for a closer look

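In 8 of the 40 combinations of gene and group, 1 library lay far from the other 3 by Dixon's test. Chance flags about 1 in 20 groups, a rate that does not apply to the 5 of these where the other 3 libraries were at 0, since any count then stands apart. *Cxcl1* was at 69.3 CPM in injured MRL replicate 4 against at most 15.1 CPM in the other 3. *Cxcl2* was at 23.8 CPM in uninjured C57 replicate 3 against at most 2.22 CPM, and at 8.44 CPM in uninjured MRL replicate 4 against at most 0.265 CPM. Those 5 were *Cxcl5* at 0.597 CPM in uninjured MRL replicate 3, *Cxcl13* at 0.272 CPM in injured MRL replicate 2, and *Cxcl9* at 1.79 CPM in injured C57 replicate 2, at 1.55 CPM in injured MRL replicate 1 and at 0.577 CPM in uninjured MRL replicate 2.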

How the results depend on the processing

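The rise of *Cxcl16* in MRL tendon was called under each alternative run. In C57 tendon the members called went from 0 to 2 with DESeq2 (*Cxcl5*, *Cxcl16*), to 1 (*Cxcl16*) in a fit over 14 libraries without the fourth uninjured library of each strain, and ran from 0 to 1 when each library was left out, 1 being without uninjured C57 replicate 4. In MRL tendon they went from 2 to 3 with DESeq2 (*Cxcl10* as well) and to 1 in a fit over all 16 libraries, where *Cx3cl1* had an edgeR adjusted p of 0.0626, and ran from 1 to 3 when each library was left out. Between injured strains they went from 0 to 1 (*Cx3cl1*) with DESeq2 and in the fit over 14 libraries, and ran from 0 to 1 when each library was left out. The counts for uninjured strains and for the difference of the responses were 0 in each fit. DESeq2 called 905 genes against 155 in C57 tendon, 1818 against 1057 in MRL tendon, 1488 against 502 between injured strains, 101 against 0 between uninjured strains and 212 against 0 for the difference of responses. The fit over 16 libraries called 367 genes in C57 tendon and 227 between injured strains, and the fit over 14 called 608 and 935, and 295 between uninjured strains. Scaling by total counts moved the all-gene median between injured strains from -0.06 to -0.20 and the share of its calls that were higher in MRL from 45.2 to 32.9%.

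Of 698 recomputed log2 fold changes of single members, 647 kept their direction and side of the threshold, and 37 changed sign, none of them called. Leaving out each library gave, in C57 tendon, -0.26 to 1.77 for *Cxcl1*, -2.75 to 0.83 for *Cxcl2* and -0.58 to 0.22 for *Cx3cl1*, and in MRL tendon -0.22 to 0.22 for *Cxcl12*. Between uninjured strains it gave -0.59 to 1.77 for *Cxcl1*, -5.62 to 1.04 for *Cxcl2*, -1.25 to 0.45 for *Cxcl13*, -0.45 to 0.23 for *Cxcl14* and -0.59 to 0.23 for *Cx3cl1*. Between injured strains it gave -0.36 to 0.62 for *Cxcl14* and -0.17 to 0.25 for *Cxcl16*, and for the difference of responses -0.42 to 0.76 for *Cxcl14* and -3.24 to 2.5003 for *Cxcl5*. The fit over 14 libraries gave 0.27 for *Cx3cl1* in C57 and 0.0036 for *Cxcl12* in MRL tendon, and between uninjured strains -0.99 for *Cxcl1*, -1.65 for *Cxcl13* and 0.24 for *Cx3cl1*. Between uninjured strains *Cxcl13* was -0.0012 with upper-quartile and -0.0402 with total-count scaling, and *Cxcl14* -0.0250 with total counts and -0.0028 with DESeq2's size factors. Between injured strains *Cxcl16* was -0.0916 with total counts. The cause of these changes was not tested.

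Uninjured libraries share replicate numbers 1 to 4. With the replicate number as a block, 0 members and 0 genes were called between uninjured strains, *Cxcl13* was -1.69 and *Cxcl14* -0.18. Same-numbered libraries had correlations of deviations of -0.26, 0.016, -0.10 and -0.23, so the numbers were not taken to pair animals.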
